A study of Homo sapiens with 30 samples.

Results

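Box H/ACA small nucleolar RNAs were followed in HEK293FT, a human embryonic kidney cell line, by their symbols, which start with SNORA in the gene annotation. The count tables held 181 such rows among 27630. The 141 rows with at least 10 counts summed over 8 libraries are described here, while 40 rows had fewer counts and 22 of these had none. Of the 141 described RNAs, 107 passed the filter on low counts and were tested in a fit of 16504 genes, and 34 had too few counts to be tested.

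The 8 libraries formed 4 groups of 2. A nuclear fraction and a cytosolic fraction made up 2 of them. The other 2 groups are preparations of RNA near the nuclear lamina that the labels call APEX NL RIP, a native one and a PFA-fixed one, here the native and the PFA lamina. Cells of every group, the fractions included, were asynchronous HEK293FT and had been transfected, by Lipofectamine 2000, with a construct joining the peroxidase APEX2 to lamin B1, a structural protein under the inner nuclear membrane. APEX2 is an engineered ascorbate peroxidase that tags molecules close to it. RNA was taken up in Trizol and ribosomal RNA was depleted for TruSeq libraries. No library of untagged cells or of whole-cell RNA was used here, so the lamina preparations were set against the 2 fractions. The labels do not say whether the replicates came from separate cultures, so the p-values measure only the spread between these libraries, which may be technical.

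Box H/ACA RNAs guide the change of uridine to pseudouridine, mainly in ribosomal RNA. Each folds into hairpins joined by a hinge with the H box, and ends in a tail with the letters ACA. They are cut out of introns of other genes, called hosts, and are bound by dyskerin (DKC1), NOP10, NHP2 and GAR1. The finished particles work in the nucleolus, and relatives with a Cajal body signal work in Cajal bodies. A few box H/ACA RNAs act in the cutting of the ribosomal RNA precursor in place of modifying it.

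In the hg19 annotation of the count tables, 120 of the 141 RNAs lay in an intron of a longer gene on the same strand and 15 in an exon of one. A further 4 lay within a gene of the opposite strand only, and 2 lay outside longer genes. The 135 RNAs inside same-strand genes had 102 different hosts. Among them, 19 were in genes whose symbols start with RPL or RPS. These are ribosomal protein genes and the pseudogenes RPL32P3 and RPL21P28. A further 17 were in genes of the SNHG series, which are named for hosting small nucleolar RNAs. The most crowded hosts were TAF1D with 6 described RNAs, EIF4A2 and SNHG17 with 4 each, and KANSL2, SNHG12 and TBRG4 with 3 each. Median length was 134 bases, and 136 of the 141 had a single locus. Strand was ignored and reads over several genes counted towards every one, so RNAs in exons share reads with their hosts. Reads of unspliced host RNA across an intronic RNA are counted for that RNA as well.

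Sequences are shown for the 5 described RNAs that overlap an annotated microRNA hairpin, because a read from such a hairpin is counted for both rows. Mature sequences of the other RNAs were not used here. The hairpins are the RefSeq sequences of GRCh38.p14, written 5′ to 3′. Capitals mark the H box letters ANANNA (N is any base) where the first of them lies at least 50 bases from both ends of the small nucleolar RNA, overlapping matches included. Capitals also mark ACA where it begins at the sixth base from the RNA's 3′ end.
MIR664A in SNORA36B, chr1:220200538-220200619, minus strand: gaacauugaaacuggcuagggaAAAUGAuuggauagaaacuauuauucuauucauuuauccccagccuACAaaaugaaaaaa
MIR664B in SNORA36A, chrX:154768596-154768656, plus strand: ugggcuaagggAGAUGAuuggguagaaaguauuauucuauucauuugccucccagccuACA
MIR3651 in SNORA84, chr9:92292458-92292547, minus strand: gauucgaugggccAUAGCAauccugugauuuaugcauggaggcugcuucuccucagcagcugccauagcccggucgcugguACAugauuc
MIR1248 in SNORA81, chr3:186786672-186786777, plus strand: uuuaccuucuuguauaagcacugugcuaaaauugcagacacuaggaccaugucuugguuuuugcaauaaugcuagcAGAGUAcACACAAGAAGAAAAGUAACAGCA
MIR1291 in SNORA2C, chr12:48654444-48654530, minus strand: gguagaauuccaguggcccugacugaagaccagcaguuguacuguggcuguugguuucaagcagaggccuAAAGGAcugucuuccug
The hairpins in SNORA36B and SNORA84 run past the 3′ end of the RNA, and that in SNORA36A ends with the letters ACA, short of it. Each of these hairpins holds both sets of letters, while those in SNORA81 and SNORA2C end before the ACA tail. At any position in the hairpin, the letters ANANNA occur in 57.7% and ACA in 63.0% of 1562 RefSeq hairpins, so a match alone is common. Whether the marked ANANNA letters lie in the hinge was not tested. SNORA81 and its hairpin row had 226 and 207 counts in nuclear replicate 1, and 397 and 395 in cytosolic replicate 1. SNORA84 had 53 counts and its hairpin 54 in nuclear replicate 1. The rows of these RNAs and their hairpins thus had nearly equal counts in these libraries.

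Libraries held 2321291 to 8557777 counts, and 3 counts, taken as the floor, equalled 0.351 to 1.29 CPM, the count scaled to the library's total. Replicates of every group differed by more than sampling noise, with a chi-square of 11.2 to 41.7 per gene. The 3 nuclear marker RNAs MALAT1, NEAT1 and KCNQ1OT1 summed to 13567 and 19785 CPM in the nuclear libraries and to 996 and 1057 in the cytosolic ones. They summed to 7131 and 15367 in the native lamina libraries and to 658 and 4809 in the PFA ones. PFA lamina replicate 1 thus lay below the cytosolic libraries in these markers and below its own replicate, against its label as lamina material. Median changes of the tested RNAs in the PFA comparisons are given with and without it. GAPDH, ACTB and EEF1A1, which mark the cytosol, summed to 802 and 1163 CPM in the nuclear, 4873 and 6566 in the cytosolic, 2302 and 2327 in the native and 2345 and 1814 in the PFA libraries. NEFL and NEFM, which this line expresses, had counts in every library. PAX2, also listed for this line, was low, with 4 counts in nuclear replicate 2 and 0 in cytosolic replicate 2. HBB and PTPRC, which mark blood cells, had none in any. COL1A1, listed for fibroblasts, had 50 to 281 counts in every library, and ALB, listed for liver, had 0 to 4.

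Box H/ACA RNAs took the largest share of counts in the nuclear fraction. They made up 0.265% and 0.279% of the counts in nuclear RNA, and 0.102% and 0.0732% in cytosolic RNA. The share was 0.129% and 0.0596% in the native lamina libraries and 0.102% and 0.0619% in the PFA lamina libraries. Both nuclear libraries lay above all 6 others, while the lamina libraries overlapped the cytosolic ones and replicate 1 of each lamina preparation lay above replicate 2. The 95% Wilson intervals of these shares reached at most 0.004 percentage points to either side and cover counting error only. In bulk RNA, fewer cells that hold an RNA and less of it per cell cannot be told apart.

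**Figure D1:**
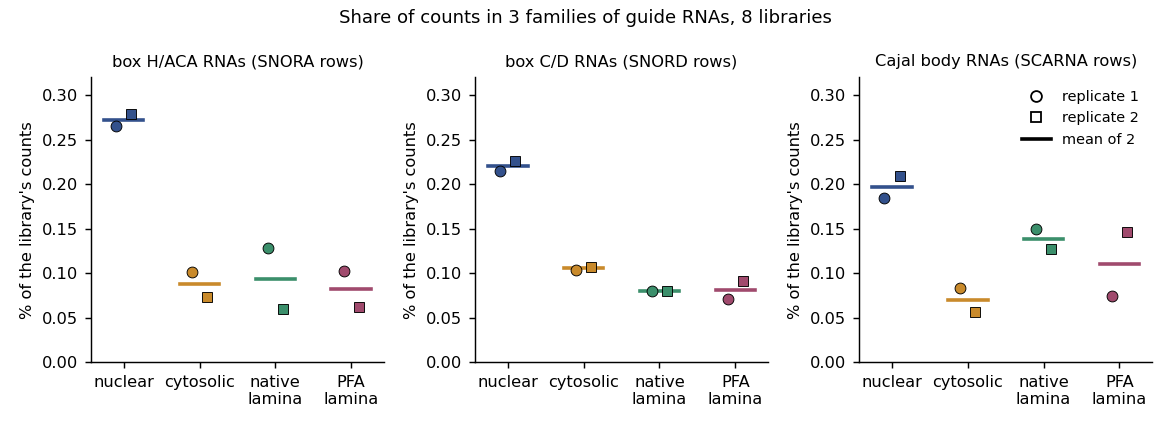
Share of each library's counts (vertical axis, %) in SNORA, SNORD and SCARNA rows, by group. Circles are replicate 1, squares replicate 2 and bars the mean of 2 libraries. Box H/ACA RNAs lie at 0.265% and 0.279% in the nuclear libraries, above all other libraries, and replicate 1 lies above replicate 2 in both lamina preparations.

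A large part of these counts came from SNORA73B. SNORA73B (older name U17B), which acts in ribosomal RNA processing, supplied 38.04% and 38.8% of all SNORA counts in nuclear RNA, and 12.5% and 9.40% in cytosolic RNA. Its share was 13.8% and 6.56% in native lamina RNA, and 19.8% and 16.6% in PFA lamina RNA. It lies in an intron of SNHG3 at chr1:28835070-28835274 (hg19). Per kilobase of its length it was the most abundant of the 141 RNAs, at a mean of 1816 normalised CPM per kb over the 8 libraries. SNORA64 followed at 453 and SNORA63 at 436, and then SNORA74A at 386, SNORA79B at 333 and SNORA48 at 259.6 normalised CPM per kb. Its relative SNORA73A had no row of that name in the gene annotation used.

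Nuclear and cytosolic fractions were compared to learn where the RNAs reside. Of the 107 tested box H/ACA RNAs, 60 were higher in the nuclear fraction and 2 were lower (edgeR, adjusted p under 0.05). Over all 16504 genes tested, 26.1% were called higher and 21.2% lower. The median log2 fold change of the 107 RNAs was 1.69, against 0.13 over all genes. The filter itself needs counts in a group, and 7 of the 107 passed it through the nuclear libraries only, as did 307 of the 16504 genes. These 7 RNAs are kept in the counts and the median of the 107, here and in the lamina comparisons. Over all 141 described RNAs, both nuclear libraries lay above both cytosolic ones for 114 RNAs, where 45.7% of all rows with at least 10 counts did so. They lay below for 6, where 30.9% of all rows did. The number called higher depended on single libraries. On leaving out a library the median ran from 1.46 to 1.83 over the RNAs tested in each fit. Among the 62 called in either direction, 18 kept the call without each library in turn.

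SNORA73B had 1022 and 1249 normalised CPM in the nuclear, 124 and 84.4 in the cytosolic, 158 and 34.5 in the native lamina and 219.5 and 87.55 in the PFA lamina libraries. Its nuclear libraries stood apart from all others, and the remaining 3 groups overlapped. The nuclear level was higher than the cytosolic one by a log2 change of 3.45 (SE 0.613, edgeR adjusted p = 0.00129). SNORA33, in an intron of the ribosomal protein gene RPS12 (chr6:133138358-133138490), had 12.8 and 10.8 normalised CPM in the nuclear and 1.47 and 1.48 in the cytosolic libraries. At the lamina it had 3.12 and 3.54 (native) and 0.739 and 1.47 (PFA). It was higher in the nuclear fraction by 2.98 (SE 0.559, edgeR adjusted p = 0.00155), and its native lamina libraries lay between both fractions.

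SNORA21B, in RPL23 (chr17:37007777-37007911), had 21.2 and 27.0 normalised CPM in the nuclear and 1.47 and 3.81 in the cytosolic libraries, and was higher by 3.24 (SE 0.618, edgeR adjusted p = 0.00167). This change was 2.63 without cytosolic replicate 1 and 3.99 without cytosolic replicate 2. SNORA22C, in CCT6P3 (chr7:64526377-64526510), had 15.1 and 17.5 in the nuclear and 1.604 and 1.27 in the cytosolic libraries, and was higher by 3.47 (SE 0.892, edgeR adjusted p = 0.00727). Groups did not overlap for either RNA. SNORA73B, SNORA33 and SNORA21B kept the call without each library in turn. SNORA22C lost it without either cytosolic library. SNORA22C belongs to a family of similar copies, so reads could be split among its members. The largest fitted change belonged to SNORA50B, named after its values were seen, with 12 and 11 counts in the nuclear libraries and none in the cytosolic ones. SNORA50B passed the filter on low counts through the nuclear libraries only, so its entry into the test rests on the group where it is high. Set against the floor of 3 counts per library it was at least 3.63-fold higher.

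**Figure D2:**
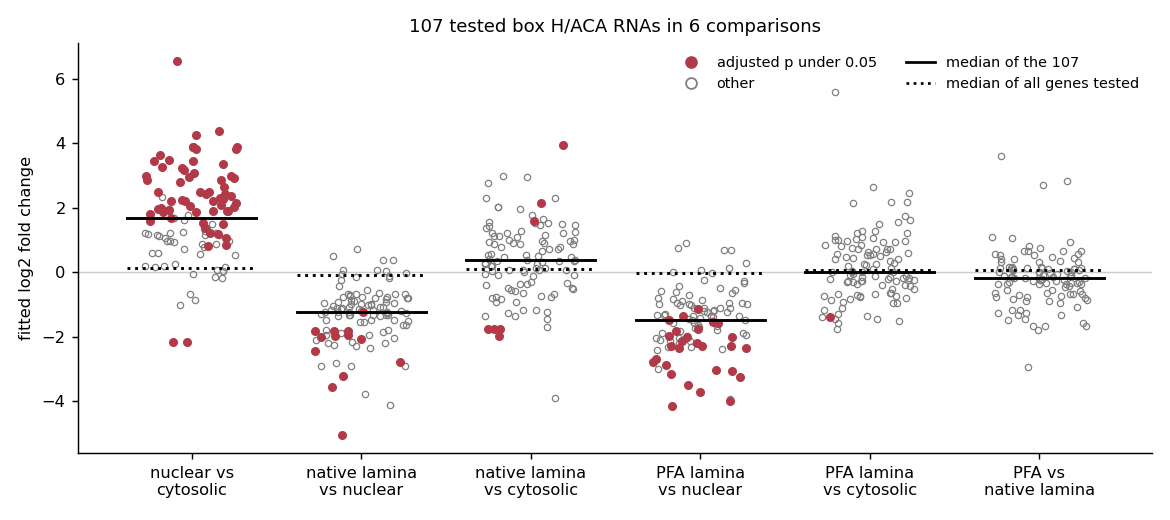
Fitted log2 fold change (vertical axis) of the 107 tested box H/ACA RNAs in each of 6 comparisons. Filled points have an edgeR adjusted p under 0.05, solid bars are the median of the 107 and dotted bars the median of all genes tested. Between the fractions the median is 1.69 with 60 RNAs called higher, and both lamina preparations lie below the nuclear fraction.

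The 2 RNAs lower in the nuclear fraction, SNORA105A and SNORA105B, are rows of the same features and so hold the same counts. These features have 232 bases in all and are not a single locus. The feature placed here lies in an exon of HSPD1, a mitochondrial chaperone gene (chr2:198351512-198351627). Both rows had 4.36 and 5.50 normalised CPM in the nuclear and 20.7 and 23.1 in the cytosolic libraries. They were lower in the nuclear fraction (log2 change -2.15, SE 0.493, edgeR adjusted p = 0.00409). HSPD1 itself had 132 and 144 normalised CPM in the nuclear and 484.5 and 591 in the cytosolic libraries, a change of -1.96 (edgeR adjusted p = 0.00151). Reads of HSPD1 mRNA across this exon are also counted for the small RNA, and their part in its value was not tested.

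The RNAs were also counted by placement in an intron or exon. Of 89 tested RNAs in introns, 52 were higher in the nuclear fraction and none was lower. Of 14 in exons, 6 were higher and 2 lower. The 2 lower rows are SNORA105A and SNORA105B, which hold the same counts. Over all genes tested, 26.1% were called higher and 21.2% lower. The median log2 fold change was 1.69 for the intronic and 1.62 for the exonic RNAs. Exonic RNAs called higher were SNORA61 and SNORA44 in SNHG12, SNORA103 in GAS5, SNORA17A in SNHG7, SNORA31B in TPT1 and SNORA7A in the ribosomal protein gene RPL32. By kind of host, 13 of 19 RNAs in genes with RPL or RPS symbols and 10 of 14 tested in SNHG genes were higher. None was lower, and the medians were 1.96 and 1.80. The 13 include SNORA7B and SNORA27, which lie in the pseudogenes RPL32P3 and RPL21P28. The difference between placements was not tested.

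Most box H/ACA RNAs, by the counts of their rows, lay further to the nuclear side than their hosts, which are counted over exons. Reads of unspliced host RNA across an intronic RNA count for its row and not for the host's. Their part in these values was not tested. For 103 tested RNAs in 76 tested hosts, the median log2 fold change of the RNAs was 1.69 and that of their hosts -0.68. The RNA lay above its host in 87 of the 103 pairs (84.5%), and the changes had opposite signs in 59. A higher RNA in a host called lower occurred in 20 pairs, and both were called higher in 21. Across the 103 pairs, which share libraries and in part hosts, the changes had a Pearson correlation of 0.21 and a Spearman correlation of 0.20.

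SNORA10 and SNORA64 lie in 1 host, the ribosomal protein gene RPS2, and the difference between them was not tested. RPS2 had 143 and 224 normalised CPM in the nuclear and 497 and 693 in the cytosolic libraries, and was lower in the nuclear fraction (log2 change -1.70, edgeR adjusted p = 0.00278). SNORA10 had 14.01 and 19.1 in the nuclear and 3.88 and 5.71 in the cytosolic libraries, and was higher by 1.80 (SE 0.412, edgeR adjusted p = 0.00402). SNORA64 (chr16:2012974-2013107) had 48.7 and 78.0 in the nuclear and 65.8 and 57.9 in the cytosolic libraries, a change of 0.03 (SE 0.532, edgeR adjusted p = 0.965). Its fractions overlapped, although it was the second most abundant of the 141 RNAs per kilobase.

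**Figure D3:**
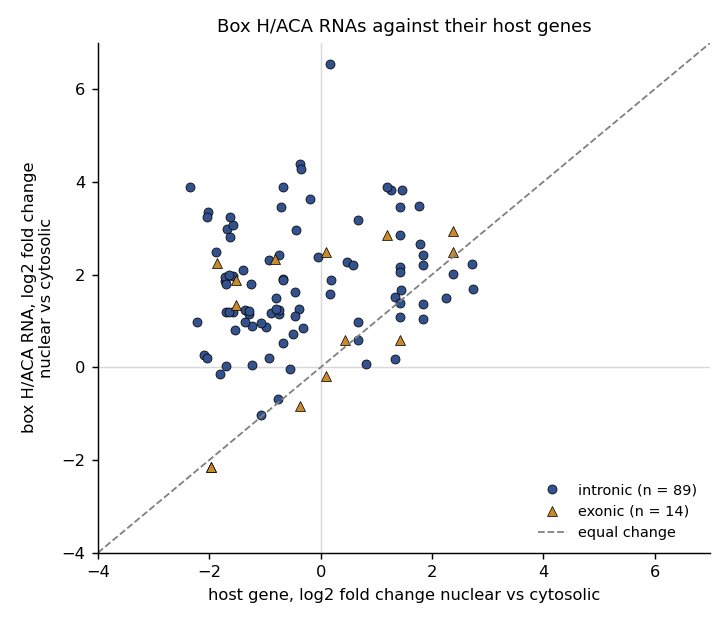
Log2 fold change between the nuclear and cytosolic fractions of each box H/ACA RNA (vertical axis) against its host gene (horizontal axis), for 103 tested RNAs, by placement. The dashed line marks equal change, and 87 of the 103 points lie above it.

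Hosts with several RNAs are given one by one, and the difference between RNAs of a host was not tested. TAF1D, which codes for a subunit of an RNA polymerase I factor, was itself higher in the nuclear fraction by 1.43 (edgeR adjusted p = 0.00208), and 4 of its 6 RNAs were called higher. Their changes ran from 0.59 for SNORA18, which lies in an exon, to 2.85 for SNORA1. SNHG12 was higher by 2.38 (edgeR adjusted p = 0.0009), and all 3 of its RNAs were called higher, with changes of 2.93 for SNORA61, 2.49 for SNORA44 and 2.02 for SNORA16A. SNHG17 was higher by 1.83, with 3 of its 4 SNORA71 copies called. EIF4A2, a translation factor gene, had -0.68 (edgeR adjusted p = 0.0745), and 3 of its 4 RNAs were called higher.

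The 4 neighbours within EIF4A2 had fitted changes from 0.53 to 3.89. SNORA63B (chr3:186504112-186504236) had 27 and 36 counts in the nuclear libraries and 2 in each cytosolic one, and was higher by a log2 change of 3.89 (SE 0.847, edgeR adjusted p = 0.00316). Its 63 nuclear against 4 cytosolic counts give a ratio of 15.7, with an exact 95% interval of 5.83 to 59.3 for counting error only. SNORA63 (older name E3) had 125 and 123 normalised CPM in the nuclear and 35.8 and 29.8 in the cytosolic libraries, a change of 1.91 (SE 0.554, edgeR adjusted p = 0.0132) that lost the call with DESeq2, without nuclear replicate 1 and without either cytosolic library. SNORA4 had 12.1 and 13.1 against 3.61 and 3.17, a change of 1.88 (SE 0.446, edgeR adjusted p = 0.00482). SNORA81, the RNA with a microRNA hairpin, had 35.2 and 79.4 in the nuclear and 53.1 and 25.8 in the cytosolic libraries, which overlapped (0.53, edgeR adjusted p = 0.425). KANSL2 had 1 of 3 RNAs called higher. TBRG4, lower itself (log2 change -0.75, edgeR adjusted p = 0.0406), had 1 of 2 tested RNAs called higher.

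The start regions of these 6 hosts are shown because the RNAs of a host are cut from its transcript. Many hosts of small nucleolar RNAs are known to begin with a C followed by a run of pyrimidines, a terminal oligopyrimidine start. Each window holds 40 bases before and 10 bases from the RefSeq start (GRCh38.p14), read on the gene's strand, and capitals mark a C followed by 4 pyrimidines at the start itself.
TAF1D, chr11:93741486-93741535, minus strand: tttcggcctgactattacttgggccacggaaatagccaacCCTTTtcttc
EIF4A2, chr3:186783537-186783586, plus strand: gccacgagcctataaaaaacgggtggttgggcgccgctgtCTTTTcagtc
SNHG12, chr1:28581864-28581913, minus strand: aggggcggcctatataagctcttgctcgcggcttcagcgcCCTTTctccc
SNHG17, chr20:38435319-38435368, minus strand: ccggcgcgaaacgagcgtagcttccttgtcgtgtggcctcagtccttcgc
KANSL2, chr12:48682229-48682278, minus strand: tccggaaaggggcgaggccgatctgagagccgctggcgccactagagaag
TBRG4, chr7:45111688-45111737, minus strand: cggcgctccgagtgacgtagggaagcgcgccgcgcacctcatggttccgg
TAF1D, EIF4A2 and SNHG12 hold these letters at the annotated start, as do 4.04% of 27305 RefSeq start windows read on the gene's strand. SNHG17, KANSL2 and TBRG4 do not at this exact base. Windows were matched for 79 of the 102 hosts, under 80%, so no count over all hosts is given.

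Native lamina RNA was compared with the nuclear fraction to see which RNAs are enriched or depleted near lamin B1. None of the 107 box H/ACA RNAs was higher at the native lamina and 13 were lower (edgeR, adjusted p under 0.05). The 107 include the 7 that passed the filter through the nuclear libraries only. Their entry into the test rests on the group where they are high. Over all genes tested, 3.87% were called higher and 3.44% lower. No RNA was called higher by DESeq2 or without the filter either, and none had an unadjusted p under 0.05 in that direction. The median log2 fold change was -1.22, against -0.07 over all genes. Both native libraries lay below both nuclear ones for 109 of the 141 RNAs, where 37.4% of all rows did, and above for 2, where 25.0% did. The number of RNAs called lower depended on single libraries. On leaving out a library the median ran from -1.85 to -0.97 over the RNAs tested in each fit.

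SNORA53, which had close values in both libraries of every group, lies in an intron of SLC25A3, the mitochondrial phosphate carrier gene (chr12:98993413-98993662). It had 123 and 122 normalised CPM in the nuclear, 71.0 and 68.5 in the cytosolic, 19.65 and 15.9 in the native lamina and 24.95 and 28.3 in the PFA lamina libraries. All 4 lamina libraries lay below all 4 fraction libraries. It was higher in nuclear than in cytosolic RNA by 0.81 (SE 0.259, edgeR adjusted p = 0.0212), a call lost without any 1 of those 4 libraries. Against the nuclear fraction it was lower at the native lamina (log2 change -2.78, SE 0.278, edgeR adjusted p = 0.000646) and at the PFA lamina (log2 change -2.21, SE 0.276, edgeR adjusted p = 0.00265). It was the only RNA whose calls in both comparisons held without each library in turn. SLC25A3 itself had 102 and 127.5 normalised CPM in the nuclear and 119 and 74.3 in the native libraries, which overlapped (-0.24, edgeR adjusted p = 0.674).

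SNORA73B was lower in native lamina RNA than in nuclear RNA (log2 change -3.56, SE 0.616, edgeR adjusted p = 0.0115). Without native replicate 1 the change was -5.03 and without native replicate 2 it was -2.83, and the call was lost without either nuclear library. SNORA74A (older name U19), in SNHG4 (chr5:138614469-138614668), had 155 and 187 normalised CPM in the nuclear, 66.3 and 53.1 in the cytosolic, 53.8 and 27.3 in the native and 53.6 and 22.4 in the PFA libraries. It was lower at the native lamina (log2 change -2.07, SE 0.406, edgeR adjusted p = 0.0157), a call lost without either nuclear library or native replicate 2. SNORA49, in EP400 (chr12:132515769-132515905), had 27.1 and 23.5 in the nuclear, 4.28 and 5.50 in the cytosolic, 7.59 and 1.47 in the native and 7.95 and 1.10 in the PFA libraries. Replicate 2 of each lamina preparation lay below the other 6 libraries. Its change of -2.44 (SE 0.682, edgeR adjusted p = 0.0477) was -4.07 without native replicate 1 and -1.72 without native replicate 2, and it lost the call without native replicate 2, any fraction library or with total counts.

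**Figure D4:**
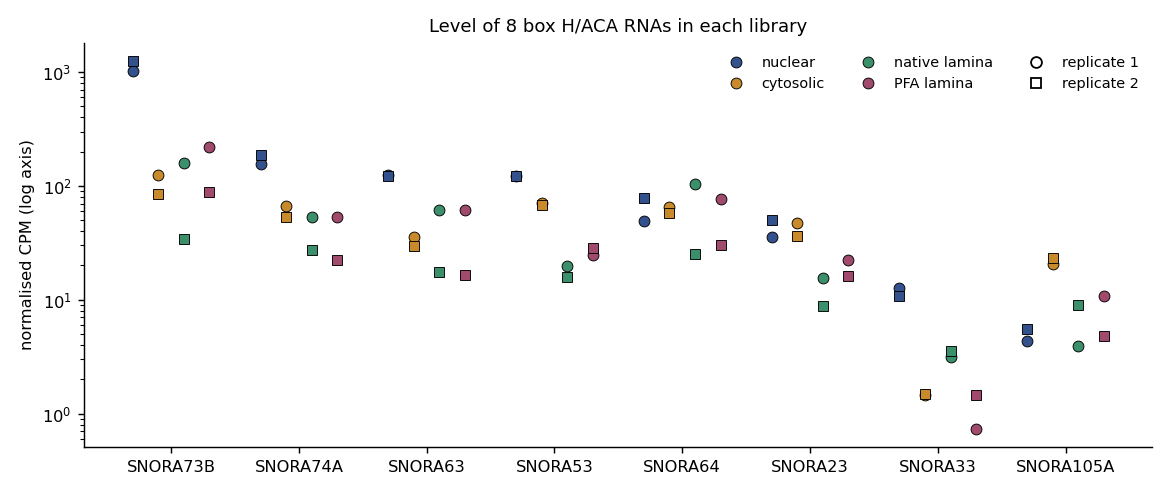
Normalised CPM (vertical axis, log scale) of 8 box H/ACA RNAs in each library. Colours are groups, circles replicate 1 and squares replicate 2. SNORA53 and SNORA23 lie below both fractions in all 4 lamina libraries, and for SNORA73B, SNORA63 and SNORA64 replicate 1 of each lamina preparation lies above replicate 2.

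PFA lamina RNA was set against the nuclear fraction in the same way. None of the 107 RNAs was higher than in the nuclear fraction and 28 were lower (edgeR, adjusted p under 0.05), where 9.63% of all genes were called higher and 7.81% lower. The 7 RNAs that passed the filter through the nuclear libraries only are kept here too. None had an unadjusted p under 0.05 in the higher direction, and DESeq2 called none higher. The median log2 fold change was -1.48, against -0.04 over all genes. Both PFA libraries lay below both nuclear ones for 106 of the 141 RNAs, where 33.4% of all rows did, and above for none, where 27.0% did. Without PFA replicate 1, the library low in nuclear markers, 22 RNAs were called lower and the median of the 107 was -1.99, where 1.57% of the same 16504 genes were called lower. PFA replicate 2 by itself lay below both nuclear libraries for 122 of the 141 RNAs. The number called lower depended on single libraries. On leaving out a library the median ran from -1.91 to -1.35 over the RNAs tested in each fit, a set that can differ from the 107. Both lamina comparisons share the nuclear libraries.

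SNORA73B was lower in PFA lamina RNA than in nuclear RNA (log2 change -2.88, SE 0.598, edgeR adjusted p = 0.011), which was -3.69 without PFA replicate 1, and the call was lost without nuclear replicate 1. SNORA33 was lower in PFA lamina RNA than in nuclear RNA (log2 change -3.50, SE 0.620, edgeR adjusted p = 0.00752), a call lost without nuclear replicate 1. SNORA22C had 2.59 and 0.368 normalised CPM in the PFA libraries and was lower (log2 change -3.26, SE 0.908, edgeR adjusted p = 0.0294). Its change was -5.38 without PFA replicate 1 and -2.63 without PFA replicate 2, and the call was lost without either nuclear library. SNORA22C had 14 counts in PFA replicate 1 and 1 in replicate 2, and its ratio of nuclear to PFA counts was 8.80, with an exact 95% counting interval of 5.21 to 16.0. SNORA7B, in RPL32P3 (chr3:129116053-129116191), had 8.72 and 8.59 in the nuclear and 1.11 and 0.736 in the PFA libraries, without overlap. It was lower (log2 change -3.14, SE 0.654, edgeR adjusted p = 0.011), lost without either nuclear library. Its 106 nuclear and 8 PFA counts give a ratio of 8.79 (exact 95% counting interval 4.30 to 20.9). SNORA22, in CCT6P1 (chr7:65220513-65220646), had 47.2 and 43.5 in the nuclear and 9.05 and 0.736 in the PFA libraries. It was lower (log2 change -3.04, SE 0.915, edgeR adjusted p = 0.0379), and this became -5.89 without PFA replicate 1 and -2.31 without PFA replicate 2. Its 556 nuclear and 51 PFA counts give a ratio of 7.23 (exact 95% counting interval 5.42 to 9.83). DESeq2 did not call SNORA22, nor did fits without any 1 of the 4 fraction libraries.

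Set against the nuclear fraction, the RNAs also lay low at the lamina beside their hosts. Of the 103 RNA and host pairs, the RNA lay above its host in 9 for the native lamina against the nuclear fraction and in 8 for the PFA lamina, or 5 without PFA replicate 1. Host medians were -0.01 and 0.195, beside -1.225 and -1.48 for the RNAs. Against the cytosolic fraction the RNA lay above its host in 64 of the 103 pairs for the native lamina. For the PFA lamina it did so in 63, or 50 without PFA replicate 1. In level, the intronic RNAs had a median ratio to their host, per kilobase, of 1.72 and 2.004 in the nuclear and 0.612 and 0.399 in the cytosolic libraries. The ratio was 0.981 and 0.581 in native lamina RNA, and 0.619 and 0.432 in PFA lamina RNA, below both nuclear libraries.

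Against the cytosolic fraction the lamina preparations differed less. At the native lamina 3 RNAs were higher and 4 lower (edgeR, adjusted p under 0.05), beside 6.99% and 6.77% of all genes in these directions. For the PFA lamina none was higher and 1, SNORA53, was lower, where 0.527% and 0.145% of all genes were called. In the PFA comparison 7 RNAs were higher and 7 lower at an unadjusted p under 0.05, and DESeq2 called 1 higher and 2 lower. Both libraries lay above both cytosolic ones for 44 of the 141 RNAs at the native lamina and below for 24, where 36.2% and 25.3% of all rows did. For the PFA lamina these numbers were 21 and 22, where 24.9% and 20.3% of all rows did. The median changes were 0.37 and 0.02, against 0.097 and 0.08 over all genes. Without PFA replicate 1 the PFA median of the 107 RNAs was -0.48, against 0.015 over all genes. More of these RNAs, and more of all genes, were then called in both directions. For the native lamina the number called depended on single libraries. On leaving out a library its median ran from -0.15 to 0.79 over the RNAs tested in each fit.

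The 3 RNAs higher in native lamina RNA than in cytosol were SNORA63B, SNORA61 and SNORA7A, named because they are few. SNORA63B had 39 and 47 counts in the native libraries against 2 and 2 in the cytosolic ones, a log2 change of 3.96 (SE 0.841, edgeR adjusted p = 0.012). The ratio of its 86 native to its 4 cytosolic counts was 16.0 (exact 95% counting interval 6.02 to 60.0). Its native level of 4.05 and 6.925 normalised CPM overlapped the nuclear one of 4.20 and 6.185. SNORA61 had 4.99 and 7.37 in the native and 1.47 and 1.27 in the cytosolic libraries, a change of 2.14 (SE 0.538, edgeR adjusted p = 0.0223). SNORA7A had 9.25 and 6.63 against 2.54 and 2.75, a change of 1.59 (SE 0.490, edgeR adjusted p = 0.0466). All 3 calls were lost without either cytosolic library and without native replicate 2, and that of SNORA7A also without native replicate 1 or either nuclear library.

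SNORA53 was lower than in the cytosol at the native lamina (log2 change -1.97, SE 0.272, edgeR adjusted p = 0.00427), a call that held without each library, and at the PFA lamina (log2 change -1.39, SE 0.272, edgeR adjusted p = 0.0471). The PFA call was lost without any fraction library, without PFA replicate 2, with total counts and in a fit of only those 4 libraries. SNORA23, in IPO7 (chr11:9450313-9450501), had 35.6 and 50.5 normalised CPM in the nuclear, 47.1 and 35.95 in the cytosolic, 15.6 and 8.84 in the native and 22.2 and 16.2 in the PFA libraries. Its fractions overlapped and all 4 lamina libraries lay below them. It was lower than in the cytosol at the native lamina (log2 change -1.755, SE 0.350, edgeR adjusted p = 0.00997), lost without either cytosolic library or native replicate 2. The SNORA105A and SNORA105B rows were lower than in the cytosol (log2 change -1.77, SE 0.478, edgeR adjusted p = 0.0289). Their call was lost with total counts and without any of the 4 libraries compared, and the change was -2.47 without native replicate 2.

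No box H/ACA RNA was called in the comparison of PFA with native lamina RNA (edgeR, adjusted p under 0.05), where 0.0% of all genes were called in either direction. The smallest adjusted p among the 107 was 0.344. At an unadjusted p under 0.05, 1 was higher and 5 were lower, DESeq2 called none, and without the filter 1 was lower. Both PFA libraries lay above both native ones for 6 of the 141 RNAs and below for 33, where 19.0% and 18.3% of all rows did. The median log2 fold change was -0.165, against 0.06 over all genes, and its sign changed on leaving out a library, from -0.753 to 0.38 over the RNAs tested in each such fit. Those sets can differ from the 107. Without PFA replicate 1 the median of the 107 was -0.875, against 0.027 over all genes.

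Replicates of the lamina preparations stood apart in these RNAs. Replicate 1 was above replicate 2 in 78 of 107 RNAs (72.9%) at the native lamina and in 76 (71.0%) at the PFA lamina, where 51.6% and 49.1% of all genes tested were. The gap was over 4-fold for 11 RNAs at the native and 13 at the PFA lamina, that is 10.3% and 12.1%, where 0.194% and 0.388% of all genes had such a gap. In the nuclear fraction replicate 1 was above in 27 of the 107 and in the cytosolic one in 56, and no RNA had a 4-fold gap there in that direction. SNORA22 had 18.8 normalised CPM in native replicate 1 and 0.884 in replicate 2, beside 9.05 and 0.736 at the PFA lamina. SNORA79B, in CCNB1IP1, had 49.4 and 11.2 at the native and 63.75 and 10.3 at the PFA lamina, while its nuclear libraries had 83.1 and 88.5 and its cytosolic ones 39.2 and 48.4. The abundant SNORA63 and SNORA64 showed the gap as well. SNORA63 had 61.5 and 17.4 in the native and 61.35 and 16.55 in the PFA libraries. SNORA64 had 103.5 and 25.3 in the native and 76.5 and 30.2 in the PFA libraries, so replicate 1 lay above and replicate 2 below its cytosolic level. What set replicates apart was not tested.

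The RNAs with the wide gaps in part coincided. Across the 107 RNAs, the log2 ratio of replicate 1 to 2 in native and that in PFA lamina RNA had a Pearson correlation of 0.61 and a Spearman correlation of 0.64. The preparations share no library, but points of a library share its depth, and some share a host. Intronic RNAs had replicate 1 above at the native lamina in 70 of 89 and exonic ones in 6 of 14. SNORD rows had replicate 1 above in 35.2% at the native and 18.8% at the PFA lamina, and SCARNA rows in 82.6% and 52.2%.

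**Figure D5:**
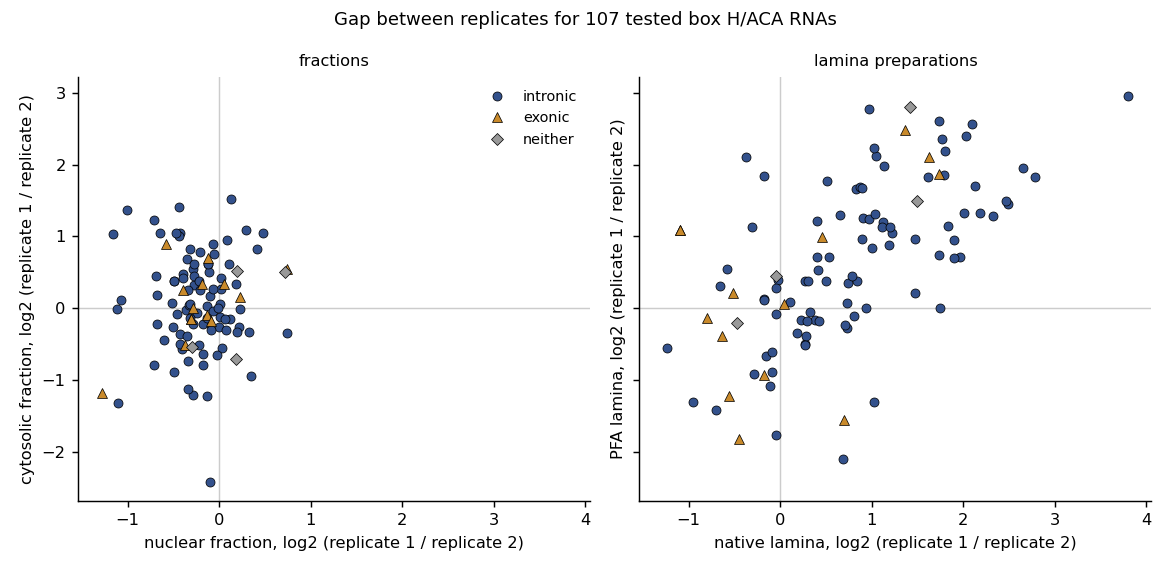
Log2 ratio of replicate 1 to replicate 2 for the 107 tested box H/ACA RNAs, on normalised CPM plus 0.5, in the fractions (left) and the lamina preparations (right). Symbols give placement. At the lamina most RNAs lie to the right of and above 0, with 78 of 107 above 0 for the native and 76 for the PFA preparation.

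Longer RNAs of the family are described as a class that was chosen after its values were seen. Of 13 described RNAs of at least 170 bases, 9 were tested. Against the nuclear fraction 6 of the 9 were lower in native and 7 in PFA lamina RNA, and of 98 shorter RNAs 7 and 21 were lower, where 3.44% and 7.81% of all genes were. Without PFA replicate 1, the medians of the 9 and the 98 in PFA lamina RNA were -2.10 and -1.93. Fewer RNAs of both classes, as of all genes, were then called lower. With all libraries the medians were -1.995 and -2.14 for the longer, and -1.208 and -1.427 for the shorter RNAs. Between the fractions the medians were 1.20 and 1.79. The longer RNAs, which include SNORA73B, SNORA74A, SNORA53 and SNORA23, hold 42.5% of all counts of the described RNAs, and SNORA73B alone holds 62.1% of the class's counts. How far depth and length each go with these calls was not tested.

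Other RNAs with a long-known name lie in ribosomal protein genes. SNORA70 (older name U70), in RPL10, had 28.01 and 28.5 normalised CPM in the nuclear, 4.41 and 7.19 in the cytosolic, 21.1 and 10.02 in the native and 17.2 and 6.62 in the PFA libraries. It was higher in the nuclear than the cytosolic fraction by 2.304 (SE 0.489, edgeR adjusted p = 0.00279). Its native libraries lay between the fractions and its PFA libraries overlapped the cytosolic ones. SNORA69 (U69), in RPL39, had 5.91 and 5.15 against 0.669 and 0.423 in the fractions, a log2 change of 3.25 (SE 0.751, edgeR adjusted p = 0.00419). Its 68 nuclear and 7 cytosolic counts give a ratio of 9.66 (exact 95% counting interval 4.44 to 24.9). SNORA72 (U72), in RPL30, had 15 and 17 counts in nuclear RNA and 2 and 0 in cytosolic RNA. SNORA62 (E2), in RPSA, had 6.69 and 7.22 normalised CPM against 0.267 and 3.595, and did not pass (1.95, SE 0.798, edgeR adjusted p = 0.0586). SNORA48, in EIF4A1, had 318 and 440 counts in the nuclear and 172 and 149 in the cytosolic libraries, a change of 1.20 (SE 0.433, edgeR adjusted p = 0.0357) lost without any 1 of the fraction libraries. SNORA79B did not pass (0.97, SE 0.644, edgeR adjusted p = 0.228).

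Of 20 listed genes for proteins and RNAs around box H/ACA RNAs (binding, assembly, processing and the telomerase RNA), all tested, 9 were lower in the nuclear fraction, 2 were higher and 9 did not pass (edgeR, adjusted p under 0.05), where 21.2% of all genes were lower and 26.1% higher. All 4 core proteins were among the 9 lower genes. NOP10 had 16.3 and 20.1 normalised CPM in the nuclear and 73.4 and 79.5 in the cytosolic libraries, a change of -2.07 (SE 0.348, edgeR adjusted p = 0.00102). NHP2 had -1.95 (edgeR adjusted p = 0.00247), GAR1 -1.89 (edgeR adjusted p = 0.00814) and DKC1, the pseudouridine synthase, -0.82 (edgeR adjusted p = 0.0459). The other 5 lower genes were the assembly factors SHQ1, RUVBL1 and RUVBL2 and the nucleolar proteins NOLC1 and TCOF1. RPAP3, a partner of the RUVBL helicases, was higher by 1.29 (edgeR adjusted p = 0.0111) and TGS1, which adds methyl groups to the cap of small RNAs, by 0.87 (edgeR adjusted p = 0.0198). NAF1, PIH1D1, COIL, WRAP53, PARN, PAPD5, EXOSC10, DIS3 and TERC did not pass.

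At the native lamina RUVBL2 (1.15, edgeR adjusted p = 0.0328) and NOLC1 (1.14, edgeR adjusted p = 0.0497) were higher than in the nuclear fraction, and none of the 20 was lower, beside 3.87% and 3.44% of all genes in these directions. In PFA lamina RNA NHP2, RUVBL1, RUVBL2 and NOLC1 were higher and TGS1 was lower than in nuclear RNA, beside 9.63% and 7.81% of all genes. Without PFA replicate 1 all 5 of these calls were lost, with edgeR adjusted p of 0.344 for NHP2, 0.0787 for RUVBL1, 0.0913 for RUVBL2, 0.199 for NOLC1 and 0.0837 for TGS1, and RPAP3 was lower (log2 change -1.91, edgeR adjusted p = 0.0145). Against the cytosol NOP10 and GAR1 were lower at the native lamina (6.77% of all genes were), and no listed gene was called at the PFA lamina. Without PFA replicate 1, NOP10, NHP2, GAR1 and COIL were lower there than in the cytosol, as were 7.06% of the same 16504 genes. Over the 20 calls in these genes, 236 of 320 values under the alternatives kept the call and none reversed. TERC, the telomerase RNA, which carries an H/ACA domain, had 100.4 and 138 normalised CPM in the nuclear and 84.9 and 120.1 in the cytosolic libraries. At the lamina it had 151 and 117 (native) and 108 and 129.9 (PFA), overlapping in every comparison, with a change of 0.22 between the fractions (edgeR adjusted p = 0.562).

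The other families of guide RNA were counted in the same way. Between the fractions 91 of 128 tested SNORD rows were higher and 2 lower, with a median of 2.603, and 11 of 23 SCARNA rows were higher and 1 lower, with 1.65. Over all genes 26.1% were higher and 21.2% lower. In native lamina against nuclear RNA 8 SNORD and 4 SCARNA rows were lower, with medians of -1.096 and -0.81, where 3.44% of all genes were. At the PFA lamina 37 and 8 were lower, with -1.905 and -1.04, where 7.81% of all genes were. Without PFA replicate 1 the medians were -1.18 and -1.39, and fewer rows of both families, as of all genes, were called lower. Against the cytosol at the native lamina 15 SNORD rows were higher, 4 lower and the median was 1.33, beside 3, 4 and 0.37 for the box H/ACA RNAs. Over all genes 6.99% were higher and 6.77% lower there. Whether the families differ was not tested.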

How the data were processed

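RNA of 8 HEK293FT libraries was analysed, and libraries of genomic DNA from other lines were not used here. Per the submitters' processing notes, TopHat2 2.1.1 and Bowtie2 2.3.2 were used with the hg19 genome. Per the file headers, the deposited raw counts per gene were made by the authors with featureCounts 1.5.2 on a RefFlat annotation, with strand ignored and with a read that overlaps several genes counted for each of them. The header of cytosolic replicate 1 names an output for nuclear replicate 1 and an input for cytosolic replicate 1; the input and the labels were followed.

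The counts were fitted with edgeR 4.0.16 in R 4.3.3 (TMM scaling, filterByExpr by group, quasi-likelihood test), with 1 fit of all 8 libraries and no block. These p-values were adjusted by the Benjamini-Hochberg method over 16504 genes, and an adjusted p under 0.05 was called. The standard error is the log2 fold change over the square root of its F statistic. Normalised CPM is CPM after TMM scaling. Named were the 4 called RNAs of largest fold change in each direction whose higher group had 50 or more counts in both libraries. The others named were the 6 most abundant per kb, 10 listed RNAs with older names (of which SNORA73A had no row) and the RNAs of hosts with 3 or more. Members and lists were chosen with earlier results of these data known. The test was checked on simulated counts. DESeq2 1.42.0, other scalings and filters, single-locus rows, the replicate block and fits without each library were tried. Libraries held 2321291 to 8557777 counts, and in the shallowest the median described RNA had 3 counts.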

Additional observations from a re-analysis of the deposited data

How the results depend on the processing

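Counts called among the box H/ACA RNAs kept within 1.5 times their value under the alternatives tried, apart from those given here, and no named call reversed. Higher in the nuclear than the cytosolic fraction were 60, 20 with at least 10 counts in every library and 26 to 73 leaving out a library; lower were 2, 0 for single-locus rows and 2 to 3 leaving out a library. Lower in native lamina RNA than in nuclear RNA were 13, 7 with total counts, 36 with no filter, 8 with at least 10 counts in every library, 48 in a fit of only the 4 libraries and 1 to 42 leaving out a library. Higher in native lamina RNA than in cytosol were 3, 6 with total counts, 5 with upper-quartile factors, 6 with no filter, 5 with at least 10 counts in every library, 6 with only the 4 libraries and 0 to 11 leaving out a library. Lower there were 4, 2 with total counts, 2 for single-locus rows and 1 to 6 leaving out a library. Lower in PFA lamina RNA than in nuclear RNA were 28, 17 with total counts, 18 with at least 10 counts in every library, 13 with only the 4 libraries and 1 to 36 leaving out a library. Against the cytosol the PFA lamina had 0 higher, 1 with no filter, 1 with DESeq2 and 0 to 2 leaving out a library. It had 1 lower, 0 with total counts, 5 with no filter, 2 with DESeq2, 0 with only the 4 libraries and 0 to 11 leaving out a library. Lower at the PFA than the native lamina were 0, 1 with no filter and 0 to 1 leaving out a library. Calls over all genes can also change between such fits, and their shares are not given beside these counts. The cause was not tested.

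The median change of the RNAs was 1.35 to 1.95 between the fractions over the alternatives that kept all libraries, -1.37 to -0.94 (native) and -1.65 to -1.33 (PFA) against the nuclear fraction. Leaving out a library, over the RNAs tested in each fit, it was 1.46 to 1.83 between the fractions, -1.85 to -0.97 (native) and -1.91 to -1.35 (PFA) against the nuclear fraction, and -0.75 to 0.38 between PFA and native lamina, where its sign changed. Against the cytosol its sign changed on leaving out a library, from -0.15 to 0.79 (native) and -0.29 to 0.30 (PFA). The RNAs tested in such a fit can differ from the 107. Over the 107, the median without PFA replicate 1 was -1.99 against the nuclear fraction, -0.48 against the cytosol and -0.875 against the native lamina. Total counts moved the median of all genes from -0.07 to 0.22 for the native lamina against the nuclear fraction and from 0.10 to 0.39 against the cytosol, and upper-quartile factors moved it from 0.13 to 0.40 between the fractions. Where a library was left out, its group's lone library was assumed to vary like the others.

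Replicate numbers were not taken to pair the samples. Over all genes tested, correlations of the replicate differences between groups ran from -0.067 to 0.321. The highest was that of the native and PFA lamina, whose replicate ratios had a Pearson correlation of 0.61 over the 107 RNAs. Whether same-numbered lamina libraries share a source was not tested. With the replicate block, 61 RNAs were higher and 2 lower between the fractions, 23 and 35 were lower at the native and PFA lamina than in the nuclear fraction, and against the cytosol 4 were higher and 4 lower (native) and 1 was lower (PFA). PFA lamina replicate 2 was the shallowest library, at 2321291 counts.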
